A study of Rattus norvegicus with 8 samples.

Results

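Complement, fibrinogen and coagulation genes were examined in the kidneys of rats fed diets that differed in silicon. They were taken from a list of 39 rat genes, each found by its single gene symbol in the annotation of the array, with the probe set of highest mean over the 8 arrays standing for each gene. Of the 39, 33 were measured this way, out of 14217 genes with a probe set of their own. On this array C2, C4a, C4b, C7 and Cfb are annotated only on probe sets that also name another gene, so they were not used, and Cd59 was not found by its symbol.

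Whole left kidneys came from female Sprague-Dawley rats aged 29 weeks, 1 kidney to an array. All the rats had eaten a low-silicon diet for 26 weeks. The Si deplete group (4 arrays) took in 0.17 mg Si/kg/day, and the Si replete group (4 arrays) received silicon in the drinking water to reach 4.1 mg Si/kg/day. All levels below are log2 gcRMA values, so that a difference of 1 is a doubling of signal, and each difference is Si deplete minus Si replete. The values of a group are given in the order of its replicates, from 1 to 4. A p-value from limma sets the difference between the groups against the spread between kidneys within the groups. That spread is moderated with the spread of all probe sets, and 4 arrays to a group limit its precision.

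Complement is a cascade of plasma proteins that tags and lyses targets: the C1 complex starts the classical pathway, C3 is the step at which the pathways meet, and C5 opens the terminal pathway that builds the membrane attack complex. Coagulation is started by tissue factor and ends in the conversion of fibrinogen to fibrin, which plasmin dissolves after plasminogen is activated by its activators. Most of these proteins in plasma are made by the liver, but kidney cells and the macrophages among them make several locally, and fibrinogen genes are known to be induced in injured kidney tubules.

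The higher means in Si deplete kidneys lay mainly in the fibrinogen chains Fga, Fgb and Fgg, the protease inhibitor A2m and the inhibitor Cfi. Complement C3 and C5, tissue factor (F3), protein S (Pros1), C1r and the C1q chains followed. Without Si deplete replicate 1, the difference went from 1.40 to 0.74 for Fga and from 2.40 to 1.63 for Fgb. It went from 1.98 to 0.91 for Fgg and from 1.84 to 1.27 for A2m. No gene of the 33 passed an adjusted p of 0.1 in limma's moderated test over 31042 probe sets, a threshold that 0.113% of all probe sets passed as higher and 0.0387% as lower. The lowest adjusted p among the genes was 0.134, for C5. The genes were chosen with earlier results of these data known, so the shares below describe the list and do not test it. At an unadjusted p of 0.05, 13 of the 33 (39.4%) were higher and 1 (3.03%) was lower. Beside these, 7.81% of all probe sets were higher and 7.14% lower, and of all genes taken at their brightest probe set 10.5% were higher and 7.95% lower. In 7 genes, or 21.2%, every Si deplete array lay above every Si replete array, and in none did the groups separate the other way. Among all probe sets 4.67% separated with Si deplete above and 4.7% with it below, and among all genes these shares were 6.45% and 5.49%. The median difference of the 33 genes was 0.36, against -0.01 over all probe sets and 0.00013 over all genes. Of the 33 differences, 26 (78.8%) were above 0, beside 47.4% of those of all probe sets and 50.0% of those of all genes.

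Storey's q-value, a less strict adjustment, put 1 of the 33 genes under 0.1, which was C5 with a q of 0.0955, beside 0.39% of all probe sets that passed it as higher. Without Si deplete replicate 3, the adjusted p from limma was 0.0627 for both F3 and Pros1, while the count of all probe sets called higher went from 35 to 235. Leaving out other single arrays gave an adjusted p in limma of up to 0.339 for F3 and 0.379 for Pros1. Without Si deplete replicate 4, the count of genes higher at an unadjusted p of 0.05 went from 13 to 8 and the median difference from 0.36 to 0.18. Without Si deplete replicate 1, the number that separated the groups went from 7 to 11. Leaving out an array can only keep or raise this number, and its share over all genes is not given here.

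**Figure D1:**
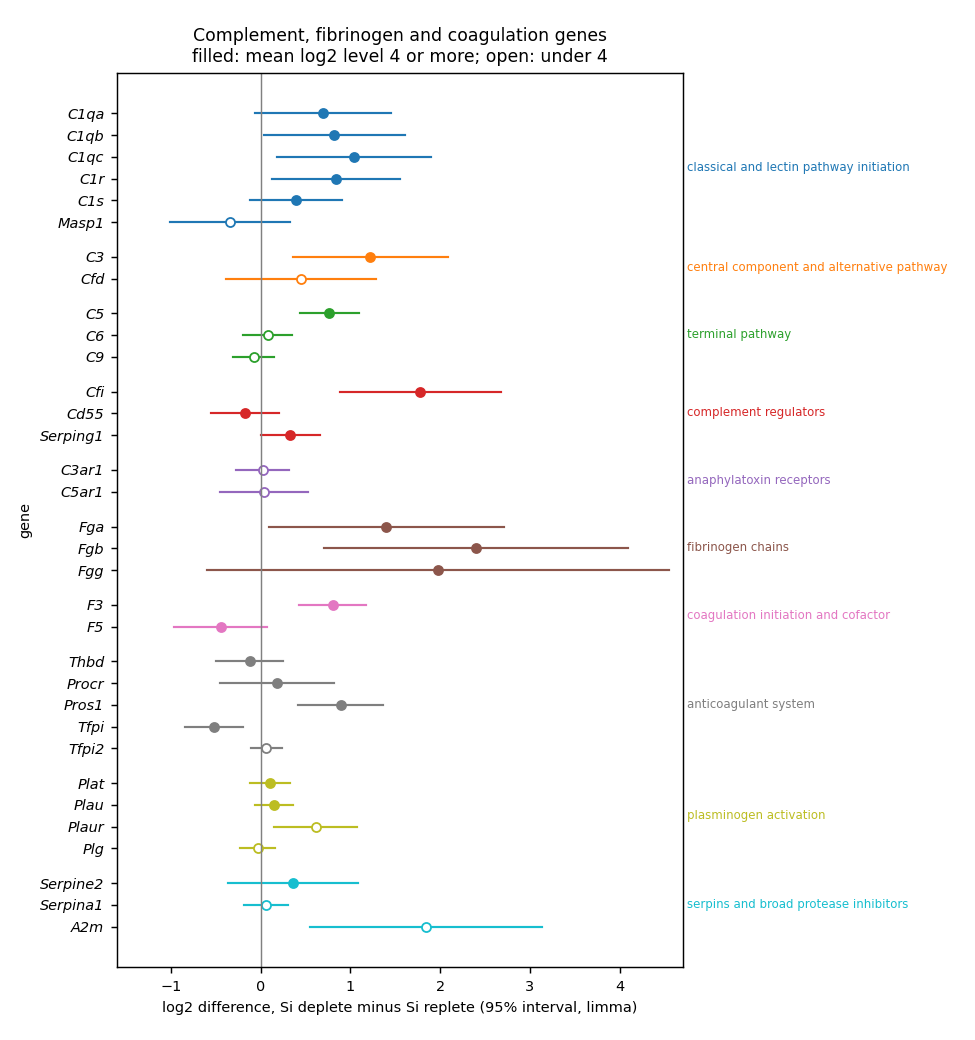
Log2 difference (Si deplete minus Si replete, horizontal axis) with its 95% interval for the 33 genes, grouped by role, with filled points for genes whose mean over the 8 arrays was 4 or more and open points for those under 4. The fibrinogen chains, A2m and Cfi lie farthest to the right, with differences between 1.40 and 2.40, and Tfpi has the lowest difference at -0.52.

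The means of 11 of the 33 genes were under 4, near the lower end of the gcRMA scale, where 51.3% of all probe sets lay. These were Masp1, Cfd, C6, C9, C3ar1, C5ar1, Tfpi2, Plaur, Plg, Serpina1 and A2m, and gcRMA compresses differences at this end. All 10 kidney tubule markers measured had means of 4 or more. The 1st principal component over all probe sets carried 42.1% of the variance and set Si deplete replicate 1 apart, at 64.0 against -25.9 to 19.2 for the other 7 arrays. For some genes the difference is given with and without that kidney. It is not given this way for every gene or marker whose difference moved by more than 1.5 times. In whole-kidney RNA, more cells of a type and more RNA per cell cannot be told apart.

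Among the genes that start the classical and lectin pathways, 3 of 6 measured were higher in Si deplete kidneys at an unadjusted p of 0.05. Of all genes, 10.5% were. C1qa, C1qb and C1qc encode the chains of C1q, the recognition molecule of the classical pathway, which tissue macrophages make. The level of C1qc was 5.75, 6.84, 5.46 and 6.30 in Si deplete kidneys and 5.09, 5.28, 4.09 and 5.73 in Si replete kidneys. The groups overlapped because Si replete replicate 4 lay above Si deplete replicate 3, and the difference was 1.04 with a standard error of 0.38 (limma, adjusted p = 0.268). C1qb measured 5.44, 6.40, 5.48 and 6.26 in Si deplete and 5.12, 5.50, 4.10 and 5.58 in Si replete kidneys, a difference of 0.82. C1qa measured 8.49, 9.14, 8.18 and 9.08 against 7.89, 8.42, 7.16 and 8.67, a difference of 0.69 that did not reach an unadjusted p of 0.05. The 3 chains took the same pattern over the arrays, highest in Si deplete replicates 2 and 4 and lowest in Si replete replicate 3. Without that low array the difference was 0.40 for C1qa and 0.50 for C1qb. In the RefSeq gene order C1qb, C1qc and C1qa are direct neighbours.

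C1r and C1s encode the proteases that C1q carries, and their genes also lie next to each other. C1r measured 7.89, 9.03, 8.02 and 9.18 in Si deplete kidneys and 7.82, 7.14, 7.96 and 7.82 in Si replete kidneys. Its difference of 0.84 came from Si deplete replicates 2 and 4, since the other Si deplete arrays lay within or close to the Si replete range, and without Si deplete replicate 4 it was 0.63. C1s followed with 9.88, 10.42, 10.05 and 11.04 against 10.08, 9.75, 9.96 and 10.03, and its difference of 0.40 did not pass an unadjusted p of 0.05 and was 0.16 without Si deplete replicate 4. Masp1, a protease of the lectin pathway, had a mean under 4 and a difference of -0.34 with overlapping groups.

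C3 is the protein whose cleavage all complement pathways share. It measured 5.30, 6.74, 5.53 and 6.25 in Si deplete and 4.07, 5.13, 4.29 and 5.45 in Si replete kidneys. The groups overlapped by a single array, Si replete replicate 4 lying above Si deplete replicate 1, and the difference was 1.22 with a standard error of 0.38 (limma, adjusted p = 0.226), a fold of 2.33. The exact permutation test over the 70 arrangements of the arrays, 2-sided, gave 0.0571. Cfd, factor D of the alternative pathway and a product of fat cells, had levels from 2.49 to 3.86 in Si deplete and from 2.19 to 3.49 in Si replete kidneys, which overlapped widely. Adipocyte markers gave 0 of 8 genes at an unadjusted p of 0.05, and Adipoq differed by 0.05.

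C5, whose cleavage releases an anaphylatoxin and opens the terminal pathway, separated the groups. Its level was 9.50, 9.55, 9.85 and 9.32 in Si deplete kidneys and 8.66, 8.66, 8.70 and 9.15 in Si replete kidneys. The Si deplete arrays were tightly placed and 3 of the Si replete arrays almost coincided, with replicate 4 closer to the Si deplete group. The difference was 0.77 with a standard error of 0.15, a fold of 1.70, and C5 had the lowest p of the 33 genes, ranking 117 among all probe sets. The exact permutation p was 0.0286, the smallest that 4 against 4 arrays allow, and it is not adjusted for the number of genes. C6 and C9, later components of the membrane attack complex, had means under 4 and differences of 0.08 and -0.08.

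The differences of the 3 complement regulators did not share a sign. Cfi, the factor I protease that inactivates C3b and C4b, measured 4.20, 5.19, 5.54 and 5.19 in Si deplete and 2.94, 2.65, 3.00 and 4.39 in Si replete kidneys. Si replete replicate 4 lay above Si deplete replicate 1, and the difference was 1.78 with a standard error of 0.40 (limma, adjusted p = 0.157), or 3.44-fold. Cfi differed from C1q and C3 in that its highest array was Si deplete replicate 3, and without Si deplete replicate 1 its difference was 2.06. Serping1, the inhibitor of C1r and C1s, measured 10.95, 10.87, 11.18 and 11.55 against 10.97, 10.72, 10.79 and 10.75, a difference of 0.33 that went to 0.19 without Si deplete replicate 4. Cd55, which speeds the decay of the C3 convertases on cell surfaces, had a difference of -0.17 and groups that overlapped.

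The receptors for the anaphylatoxins, C3ar1 and C5ar1, had means under 4 in both groups and differences of 0.02 and 0.03. Both were highest on replicate 2 within each group, and the ranges of the groups overlapped widely.

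**Figure D2:**
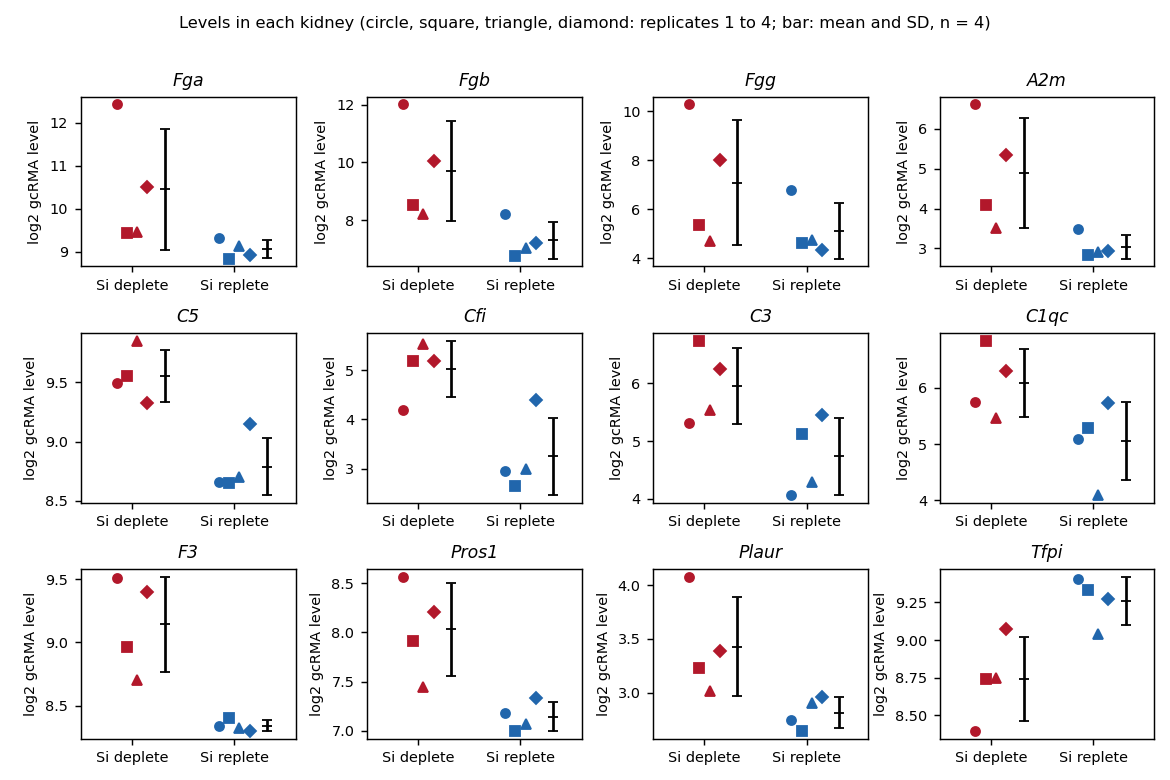
Log2 level on each array for 12 of the genes in Si deplete and Si replete kidneys, with a marker shape for each replicate number and a bar for the mean ± SD of 4 arrays. Si deplete replicate 1 is the highest point for Fga (12.43), Fgb, Fgg, A2m, F3, Pros1 and Plaur. The points of the groups do not overlap for Fga, Fgb, A2m, C5, F3, Pros1 and Plaur.

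Fibrinogen is a hexamer of 2 copies each of the alpha, beta and gamma chains, which Fga, Fgb and Fgg encode. The genes are neighbours in the order Fgg, Fga, Fgb on chromosome 2 of the GRCr8 assembly, and in liver they are induced together in the acute phase through interleukin-6, STAT3 and C/EBP factors. Because the results below turn on these neighbouring genes, the RefSeq sequence upstream of each is shown, 5′ to 3′ on the gene's own strand and ending just before the first base of the RefSeq gene. Capitals mark letters found on either strand for a C/EBP motif (TTGCNNAA), a STAT motif (TTCNNNGAA) or the IL-6 response element (CTGGGAA). The windows are chr2:170652833-170652928 on the plus strand for Fgg, chr2:170671919-170672168 on the plus strand for Fga and chr2:170700876-170701125 on the minus strand for Fgb.
Fgg: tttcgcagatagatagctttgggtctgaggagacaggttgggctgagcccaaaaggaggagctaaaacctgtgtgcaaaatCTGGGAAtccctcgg
Fga: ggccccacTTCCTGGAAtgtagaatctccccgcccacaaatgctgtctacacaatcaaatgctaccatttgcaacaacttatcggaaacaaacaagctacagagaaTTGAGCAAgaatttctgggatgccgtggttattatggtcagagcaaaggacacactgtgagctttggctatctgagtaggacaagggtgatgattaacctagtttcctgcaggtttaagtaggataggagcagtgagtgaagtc
Fgb: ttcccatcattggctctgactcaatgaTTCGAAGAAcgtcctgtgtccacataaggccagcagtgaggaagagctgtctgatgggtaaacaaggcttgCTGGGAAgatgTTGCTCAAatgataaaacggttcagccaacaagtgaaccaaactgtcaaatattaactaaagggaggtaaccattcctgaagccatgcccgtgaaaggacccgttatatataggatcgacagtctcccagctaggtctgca

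In the bases shown, Fgb held a match to each of the 3 motifs and Fga held the C/EBP and STAT motifs. Fgg held the IL-6 response element, but only 96 bases were shown for it, against 250 each for Fga and Fgb. A further match to this element lay past the start of the Fgg gene, within the 250 bases counted next. Over the 250 bases upstream in 33469 RefSeq rat promoters, the C/EBP motif was found in 9.22%, the STAT motif in 7.67% and the IL-6 response element in 9.56%. Of the 24 genes of the 33 with a promoter in the table, 6 held the C/EBP motif (C1r, C3, C6, Fga, Fgb and Plaur), 4 the STAT motif (C1qa, Fga, Fgb and Pros1) and 8 the IL-6 response element (C1r, C3, C3ar1, Fgb, Fgg, Plg, Tfpi and Tfpi2). The shares count each promoter, whereas a gene was counted if any of its promoters held the motif, so these are unlike measures. A match describes the letters of a window, and no binding was measured here.

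Fgb measured 12.01, 8.54, 8.21 and 10.06 in Si deplete kidneys and 8.21, 6.76, 7.03 and 7.20 in Si replete kidneys. Every Si deplete array lay above every Si replete array, but the gap was only 0.0025, between Si deplete replicate 3 and Si replete replicate 1. The groups no longer separated when each array's median was subtracted or the arrays were quantile normalized. The difference was 2.40 with a standard error of 0.75 (limma, adjusted p = 0.224), a fold of 5.29, and it was 1.63 without Si deplete replicate 1. Both further probe sets of Fgb lay near the lower end of the scale and differed by 0.14 and 0.02. With the 3 probe sets averaged the difference was 0.86 and the groups overlapped.

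Fga measured 12.43, 9.44, 9.45 and 10.51 against 9.31, 8.84, 9.14 and 8.93. The groups separated, with Si deplete replicates 1 and 4 well above the rest and replicates 2 and 3 just above the highest Si replete kidney. The difference was 1.40 with a standard error of 0.58 (limma, adjusted p = 0.31) and 0.74 without Si deplete replicate 1. A second Fga probe set gave 8.24, 4.62, 4.83 and 5.56 against 3.83, 3.45, 4.76 and 3.63, where the groups overlapped and the difference was 1.89.

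Fgg measured 10.29, 5.37, 4.68 and 8.01 in Si deplete kidneys and 6.80, 4.61, 4.72 and 4.32 in Si replete kidneys. It had the widest spread within a group of the 33 genes, with an SD of 2.57 among Si deplete and 1.14 among Si replete arrays. The difference of 1.98 had a 95% interval from -0.60 to 4.55 and was 0.91 without Si deplete replicate 1. The 3 chains shared an order over the arrays in which Si deplete replicate 1 was first and Si deplete replicate 4 second. Their mean deviation from each gene's average was 3.45 and 1.41 on those arrays, -0.34 and -0.67 on Si deplete replicates 2 and 3, -0.01 on Si replete replicate 1 and between -1.38 and -1.15 on the other Si replete arrays.

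**Figure D3:**
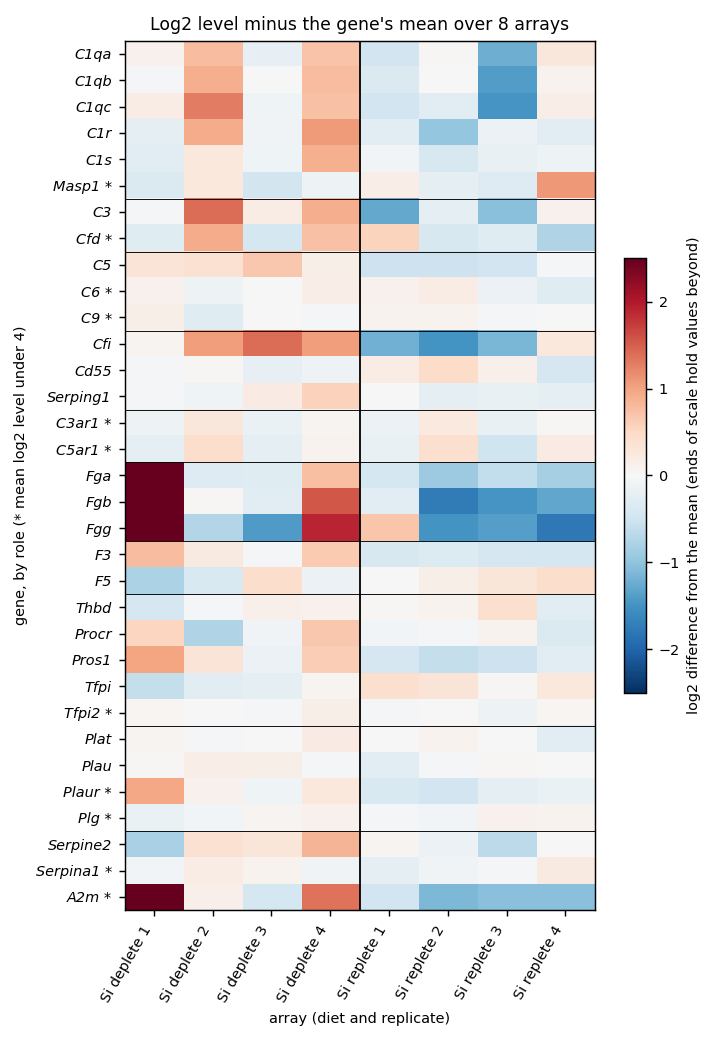
Log2 level of each of the 33 genes (rows, by role) minus that gene's mean over the 8 arrays (columns), on a colour scale from -2.5 to 2.5. Fga, Fgb, Fgg and A2m in Si deplete replicate 1 lie beyond the end of the scale, and the C1q chains, C1r and C3 are reddest in Si deplete replicates 2 and 4.

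F3, tissue factor, is the membrane receptor that starts coagulation. Its level was 9.51, 8.96, 8.70 and 9.40 in Si deplete kidneys and 8.34, 8.40, 8.32 and 8.30 in Si replete kidneys. The Si replete arrays lay close together, with an SD of 0.04, and every Si deplete array lay above them. The difference was 0.80 with a standard error of 0.17 (limma, adjusted p = 0.147), or 1.74-fold. F5, factor V, a cofactor of the prothrombin-cleaving complex, measured 7.86, 8.26, 9.08 and 8.50 against 8.66, 8.79, 8.95 and 9.09, a difference of -0.45 with overlapping groups that was -0.26 without Si deplete replicate 1.

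Of the anticoagulant genes, Pros1 and Tfpi differed in opposite directions. Pros1, the protein S cofactor of activated protein C, measured 8.57, 7.91, 7.45 and 8.21 in Si deplete and 7.18, 7.0, 7.06 and 7.33 in Si replete kidneys. The groups separated, and the difference was 0.89 with a standard error of 0.21 (limma, adjusted p = 0.166), or 1.85-fold. F3 and Pros1 shared with Fgb and Fgg the order within the Si deplete group, replicate 1 highest, then 4, 2 and 3.

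Tfpi, tissue factor pathway inhibitor, acts on the complex that F3 starts. It measured 8.40, 8.74, 8.75 and 9.08 in Si deplete and 9.41, 9.33, 9.04 and 9.27 in Si replete kidneys. Its lowest array was Si deplete replicate 1, the array at which F3 was highest, and the groups overlapped by Si deplete replicate 4 against Si replete replicate 3. The difference was -0.52 with a standard error of 0.14 (limma, adjusted p = 0.195), and a second, dimmer probe set gave -0.32. Thrombomodulin (Thbd) and the endothelial protein C receptor (Procr), which together activate protein C, differed by -0.12 and 0.18 with overlapping groups, and Tfpi2, with a mean under 4, by 0.06.

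Plau and Plat encode urokinase and tissue plasminogen activator. Plau lay between 12.55 and 12.98 and Plat between 10.07 and 10.54 on all 8 arrays, and their differences were 0.15 and 0.10. Plaur, the urokinase receptor, measured 4.08, 3.23, 3.01 and 3.39 in Si deplete and 2.75, 2.64, 2.90 and 2.96 in Si replete kidneys, so that the groups separated at the low end of the scale with a difference of 0.61 (limma, adjusted p = 0.24). The difference of Plaur was 0.40 without Si deplete replicate 1 and 0.32 with its probe sets averaged, since its second, dimmer probe set differed by only 0.04. Plasminogen itself (Plg) lay between 1.78 and 2.04 on every array.

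A2m, alpha-2-macroglobulin, traps proteases of many classes and in rats is an acute phase protein. It measured 6.61, 4.09, 3.52 and 5.33 in Si deplete kidneys and 3.50, 2.85, 2.92 and 2.93 in Si replete kidneys. The gap between the groups was 0.0218, between the same arrays as for Fgb, and closed when each array's median was subtracted or the arrays were quantile normalized. Its difference was 1.84 with a standard error of 0.57 (limma, adjusted p = 0.223), or 3.58-fold, and 1.27 without Si deplete replicate 1. The order of its arrays within the Si deplete group was that of F3 and Pros1. Serpine2, protease nexin-1, measured 6.26, 7.45, 7.39 and 7.92 against 7.15, 6.94, 6.42 and 7.09, with Si deplete replicate 1 the lowest array of all. Its difference of 0.36 was 0.69 without that array and 0.14 without Si deplete replicate 4. Serpina1, alpha-1-antitrypsin, lay between 1.52 and 1.95 throughout.

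The spread within groups was described by the SD of each gene. Over the 33 genes the median SD was 0.46 among Si deplete and 0.22 among Si replete arrays, and over the 22 of them with a mean of 4 or more it was 0.51 and 0.26, beside 0.19 and 0.13 over all 9489 genes with such a mean. The SD was larger in the Si deplete group in 12 of those 22, beside 6753 of the 9489 genes. The mean deviation over all 33 genes was 0.39, 0.22, -0.05 and 0.50 in Si deplete and -0.17, -0.30, -0.43 and -0.17 in Si replete kidneys.

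The other genes of the pathways were read from wider lists. Of all genes, 10.5% were higher and 7.95% lower at an unadjusted p of 0.05. Of 28 further complement genes 23 were measured, of which 0 passed an adjusted p of 0.1, 7 were higher and 2 lower at an unadjusted p of 0.05, and their median difference was 0.10. Clu, clusterin, which blocks the membrane attack complex and is released by injured tubules, measured 13.71, 12.73, 12.62 and 13.36 in Si deplete and 12.27, 11.83, 11.60 and 12.05 in Si replete kidneys, a difference of 1.17. Itgb2, the beta chain of complement receptors on leukocytes, differed by 1.09 and Cd93 by 0.77, while the lectin Colec11 differed by -0.58, and each of these separated the groups. C4bpa, a chain of the C4b-binding protein, also did, near the lower end of the scale, with a difference of 0.42. Of 37 further coagulation and fibrinolysis genes 27 were measured, of which 0 passed, 4 were higher and 3 lower at an unadjusted p of 0.05, and their median difference was -0.01. Among these Vwf, the von Willebrand factor of endothelium, differed by -1.02, protein C (Proc) by -0.55, Anxa2, a receptor for plasminogen on cells, by 0.60, the thrombin receptor F2r by 0.35 and factor VIII (F8) by 0.26.

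Genes of the acute phase and of interleukin-6 signalling were taken beside fibrinogen. Of 24 listed 22 were measured, and 1 passed: Il6st, the shared receptor chain gp130, rose by 0.57 with a standard error of 0.09 (limma, adjusted p = 0.0864), every Si deplete array (10.47 to 10.68) lying above every Si replete array (9.83 to 10.10). Its call held without Si deplete replicate 3 and was lost on leaving out any other single array, with adjusted p in limma from 0.0776 to 0.312 and differences from 0.52 to 0.62, and it was lost with the replicate number as a block (adjusted p 0.115). At an unadjusted p of 0.05, 10 were higher and 0 lower, beside 10.5% and 7.95% of all genes. Of the 22, 9 had means under 4 and 5 had differences below 0. The genes named here, apart from Il6, were those with the smallest p. Lbp, lipopolysaccharide-binding protein, measured 9.10, 7.09, 6.36 and 8.37 against 6.03, 4.60, 4.84 and 5.23, the order of Fgb and Fgg within the Si deplete group. Lcn2, the lipocalin NGAL that injured tubules release, measured 13.30, 10.82, 10.29 and 11.80 against 9.95, 8.00, 8.17 and 9.28. The TNF receptor Tnfrsf1a differed by 0.92, and Hpx, hemopexin, by 0.37 near the lower end of the scale. Il6 itself, named after its values were seen, lay between 1.79 and 2.21 on all 8 arrays.

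Hepatocyte markers were read beside these genes. Of the 11 measured, 7 had means under 4, while Apoc3 and Rbp4 had means of 8.21 and 6.95, so the list was not restricted to liver here. Alb, the defining hepatocyte gene, lay between 2.39 and 2.57 on every array, and of 11 hepatocyte genes 0 were higher and 3 lower at an unadjusted p of 0.05. Their mean deviation ran from -0.35 to 0.07 in Si deplete and from 0.08 to 0.30 in Si replete kidneys, lowest in Si deplete replicate 1. The presence of RNA from other tissue was not tested. For the counts in this paragraph at an unadjusted p of 0.05, the shares over all genes were 10.5% higher and 7.95% lower. The 7 measured platelet and blood cell genes all had differences below 0, 2 of them at an unadjusted p of 0.05. Of 10 endothelial markers 2 were higher and 1, Vwf, was lower. All 10 kidney tubule markers had differences below 0, 1 of them at an unadjusted p of 0.05, with a median of -0.13 and a mean deviation of -0.38 in Si deplete replicate 1 against -0.02 to 0.12 on the other arrays. All 5 podocyte markers also had differences below 0, 2 of them at an unadjusted p of 0.05, with a median of -0.57.

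Kidney injury markers ordered the arrays much as the fibrinogen chains did. All 12 measured had a difference above 0, 10 at an unadjusted p of 0.05 and 9 with separated groups, and 0 passed the adjusted threshold. Of all genes, 10.5% were higher at an unadjusted p of 0.05 and 6.45% separated with Si deplete above. Lcn2 is both on this list and on the acute phase list, and the lists were chosen with earlier results of these data known. Havcr1, the tubular injury protein KIM-1, measured 12.69, 11.24, 10.69 and 12.10 in Si deplete and 9.61, 6.57, 7.03 and 8.88 in Si replete kidneys. The mean deviation of these 12 was 1.33, 0.29, 0.06 and 0.70 in Si deplete and -0.17, -0.83, -0.92 and -0.46 in Si replete kidneys. As with fibrinogen, Si deplete replicates 1 and 4 were highest and Si replete replicate 1 was the highest of its group.

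Macrophage and myeloid markers ordered the arrays much as the C1q chains did. Of 15 measured, 5 were higher at an unadjusted p of 0.05 and 0 lower, beside 10.5% and 7.95% of all genes. In 0 did the groups separate, beside 6.45% of all genes with Si deplete above. The mean deviation of these 15 was 0.09, 0.54, -0.12 and 0.41 in Si deplete and -0.40, -0.12, -0.67 and 0.25 in Si replete kidneys. For the C1q chains it was 0.08, 0.98, -0.10 and 0.74, and -0.44, -0.08, -1.36 and 0.18. In both, Si deplete replicates 2 and 4 were highest and Si replete replicate 3 lowest. Cd68, a lysosomal protein of macrophages, differed by 0.80, with a mean of 3.74 near the lower end of the scale and overlapping groups. Over the 15 markers the median difference was 0.50, 1 difference was below 0 and 4 means were under 4. Of 14 fibroblast and mural markers 6 were higher and 0 lower at an unadjusted p of 0.05, and their mean deviation of 0.02, 0.51, -0.20 and 0.79 in Si deplete and 0.0014, -0.44, -0.47 and -0.21 in Si replete kidneys was highest on the same pair of arrays as C1r, C1s and C3. The part of myeloid cell number, of fibroblast number and of tubular injury in the differences of C1q, C1r, C3 and fibrinogen was not tested.

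**Figure D4:**
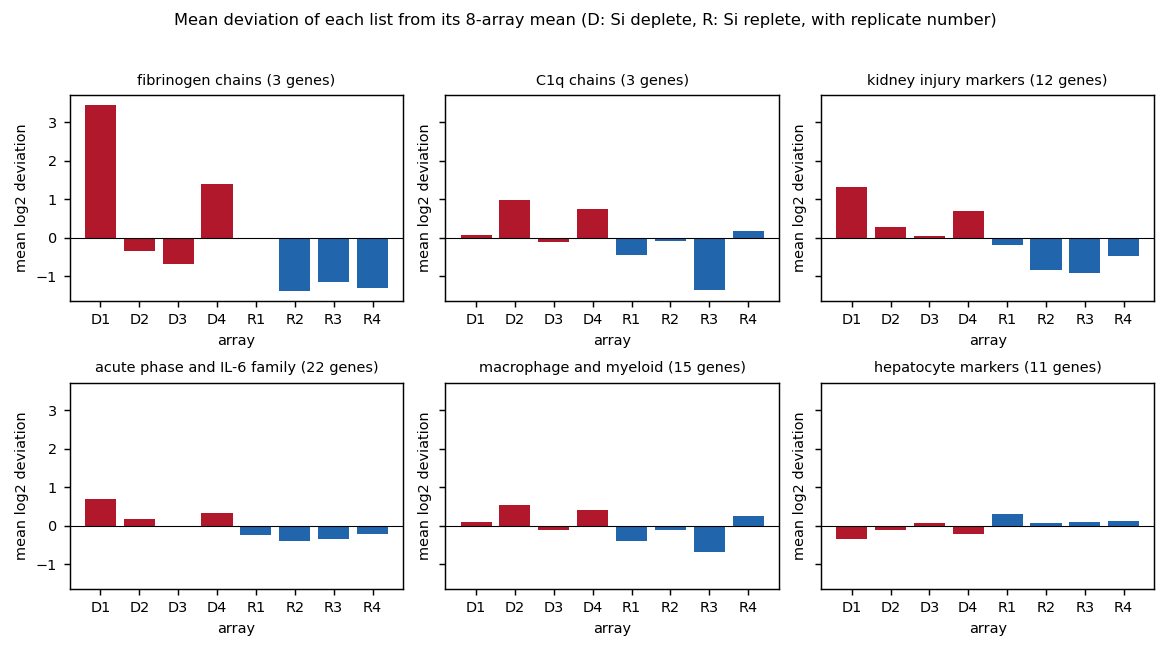
Mean log2 deviation from each gene's average (vertical axis) on each of the 8 arrays for the fibrinogen chains, the C1q chains, kidney injury markers, acute phase and IL-6 genes, macrophage and myeloid markers and hepatocyte markers. The fibrinogen and injury bars are tallest in Si deplete replicate 1 (3.45 and 1.33), and the C1q and myeloid bars in Si deplete replicate 2 (0.98 and 0.54).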

How the data were processed

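Total RNA of 8 kidneys, 4 Si deplete and 4 Si replete, was hybridised to Affymetrix rat genome arrays, 1 kidney to each. The authors deposited log2 expression values, background-corrected and normalized by gcRMA (GCRMA 2.36.0 in the submitters' processing notes) with an m-estimator summary of the probes. gcRMA brings dim probe sets close to a common low value, which shrinks their differences.

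From these log2 values, 57 control probe sets were left out and the other 31042 were fitted in limma 3.58.1 under R 4.3.3 (lmFit and eBayes), with Benjamini-Hochberg adjustment over all of them and a threshold of 0.1. For single genes an exact 2-sided permutation test over samples used 70 arrangements. Symbols came from the platform annotation, in which 20826 probe sets had 1 symbol, 436 several and 9780 none, and all 33 symbols matched RefSeq. Of the 33 genes, 25 had 1 probe set and 8 had several, whose 11 further probe sets all had the sign of the brightest. All 33 genes are named. Of the other lists, up to 5 genes with the smallest p could be named, besides Alb, Adipoq, Cd68, Havcr1 and Lcn2. The genes, lists and motifs were chosen with earlier results of these data known. Probe sets naming several genes were not used. Promoters came from RefSeq (GRCr8). The calculation was tested on simulated data.

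The settings varied one at a time were the intensity trend and robustness of the prior, weights for the arrays, the filter on dim probe sets (mean under 4), the scaling (median subtraction per array or quantile normalization), a replicate block, averaging over a gene's probe sets, the adjustment (Storey's q-value, or 0.05 as threshold) and the omission of single arrays.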

Additional observations from a re-analysis of the deposited data

Results flagged for a closer look

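Within each group of 4 arrays, the gap between the extreme array and its nearest neighbour was divided by the group's range, and 3 of 76 groups examined exceeded Dixon's 95% critical value for 4 values, where chance gives 3.8 (1 group in 20). C5 in Si replete replicate 4 was 9.15 against 8.70 for the nearest array of its group, a ratio of 0.912. Fgg in Si replete replicate 1 was 6.80 against 4.72, a ratio of 0.836, and A2m on the same array was 3.50 against 2.93, a ratio of 0.876.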

How the results depend on the processing

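The number of arrays sets the limits here: with 4 against 4, no exact permutation p can be under 0.0286, and 11 of the 33 genes had means under 4. The arrays were not tied to the days on which rats were killed in the sources used here, so a day effect was not tested.

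Of all probe sets, 35 were called higher and 12 lower. These counts were 58 and 19 once dim probe sets (mean under 4) were dropped, 121 and 51 by Storey's q-value and 0 and 0 at an adjusted p under 0.05, with 4638 at an unadjusted p of 0.05. With each array's median subtracted 19 were called lower. Leaving out each array gave 0 to 235 higher and 0 to 67 lower, most without Si deplete replicate 3. Among the complement, fibrinogen and coagulation genes the count called higher, 0, was 1 by Storey's q-value (C5) and 0 to 2 leaving out each array. Leaving out each array gave 8 to 15 genes higher and 1 to 2 lower at an unadjusted p of 0.05. It gave 7 to 11 with Si deplete above without overlap and 0 to 1 with it below, counts that an omission can only keep or raise. With the mean of each gene's probe sets 1 gene, Tfpi, separated with Si deplete below, and Fgb no longer separated, its difference going from 2.40 to 0.86. The median difference, 0.36, was 0.73 with dim probe sets left out, which removes 11 genes, and 0.18 to 0.44 leaving out each array.

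The replicate number as a block gave 90 probe sets called higher, 1 gene of the 33 (C3, adjusted p 0.0888) and 2 genes lower at an unadjusted p of 0.05, while Il6st was not called (adjusted p 0.115). The deviations of same-numbered arrays correlated at 0.088, 0.090, 0.079 and -0.088, and 4 of 8 arrays were nearest to the array that shared their number. Each array was matched only among the 4 of the other group, and the count that chance gives was not worked out. Whether the numbers mark pairs was not tested, and the main fit did not treat them as pairs.

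Differences that changed sign were all near 0. C3ar1 was -0.033 and C5ar1 -0.024 with each array's median subtracted, and C5ar1 was -0.016 after quantile normalization. Leaving out each array, C6 ran from -0.0090 to 0.15, C9 from -0.14 to 0.0083, C3ar1 from -0.068 to 0.11, C5ar1 from -0.13 to 0.17, Thbd from -0.23 to 0.0014, Procr from -0.0082 to 0.46, Plg from -0.069 to 0.017 and Serpina1 from -0.0038 to 0.14. The cause of these moves was not tested.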
